A study of Mus musculus with 15 samples.

Results

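The comparison described here set the livers of wild-type mice that had received antibiotics and then the carcinogen diethylnitrosamine (DEN) and the hepatotoxin carbon tetrachloride (CCl4) against the livers of untreated wild-type mice. It used 7 of the 15 arrays of the series, 4 from the antibiotic group and 3 from the untreated group. Genes entered when a probe set with a single gene symbol reached a deposited log2 value of 4 on at least 3 of the 15 arrays, and each gene was represented by its probe set with the highest mean. This kept 9482 of the 18193 genes with such a probe set.

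All mice of these groups were male WT C3H/HeOuJ, a strain with a functional Tlr4 receptor, and were 15 weeks old when killed. The untreated group was labelled as having had no treatment. From the age of 10 weeks the antibiotic group had 4 drugs in its drinking water, vancomycin (500 mg/l) and 3 others at 1 g/l (metronidazole, ampicillin and neomycin), and these were stopped after 2 weeks. DEN (100 mg/kg) followed by injection at 12 weeks, then CCl4 (0.50 ml/kg) at 13 weeks and again at 15 weeks, with an interval of 48 hours between the second CCl4 injection and removal of the liver. A further 4 arrays came from WT C3H/HeOuJ mice given DEN and CCl4 on the same schedule without antibiotics, called treated wild type below. Whole liver RNA was hybridised to single-colour Affymetrix arrays.

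The antibiotic and untreated groups differ in antibiotics, DEN and CCl4 together, so the contributions of these agents to a difference between the groups cannot be told apart from these arrays alone, and a group given antibiotics only was not analysed here. The antibiotic and treated wild-type groups differ, by their labels, in antibiotics only, and that difference is given beside the first. A description field shared by the samples names another age and a liver resection. It contradicts the other labels and was not used. The labels do not state that each array is a separate animal, so p-values measure the spread between arrays. That spread was pooled over the groups of all 15 arrays, including a treated Tlr4 mutant group that is not compared here.

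DEN is activated by cytochrome P450 enzymes of hepatocytes to an alkylating agent that damages DNA, and CCl4 is converted by the P450 enzyme Cyp2e1 to radicals that kill hepatocytes around the central veins. The liver answers such an injury with infiltration by macrophages that clear dead cells, activation of stellate cells that lay down matrix, and division of the surviving hepatocytes. Oral antibiotics of this kind deplete gut bacteria, whose products reach the liver through the portal vein and are sensed by receptors such as Tlr4.

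The share of probe sets at log2 4 or more ranged from 34.6% to 36.3% over the 7 arrays, and the array medians over the kept genes from 7.65 to 7.87. The 5 hepatocyte markers measured (Alb, Apoa1, Cps1, Cyp2e1 and Ttr) lay between 11.14 and 14.87 on these arrays, so the labelled tissue carried its markers. Pearson correlations over genes were 0.99 to 0.993 between untreated arrays, 0.977 to 0.988 between antibiotic arrays, 0.881 to 0.904 between an antibiotic and an untreated array, and 0.954 to 0.985 between an antibiotic and a treated wild-type array. The median SD of a gene was 0.15 in the untreated, 0.22 in the antibiotic and 0.18 in the treated wild-type group. The number of arrays limits the precision of every difference given below.

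The antibiotic group differed from untreated liver in most of the genes measured. At an adjusted p under 0.05 in limma's moderated test, 5577 genes (58.8%) changed, of which 3269 (34.5%) were higher and 2308 (24.3%) were lower in the antibiotic group. A difference of at least 2-fold was reached by 1494 of the higher and 811 of the lower genes, and 3905 genes did not pass. The values of all antibiotic arrays lay on one side of all untreated arrays in 5619 genes (59.3%). The median difference over all genes was 0.11 (log2). Higher genes made up 58.6% of the calls on the deposited values. When each array was centred on its median they made up 44.5% and the median difference was -0.07, and after quantile normalization they made up 45.5% with a median of -0.05. The direction of small differences therefore depended on the scaling. List counts against untreated are to be read beside 34.5% higher and 24.3% lower over all genes.

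Against treated wild type, the same 4 antibiotic arrays differed in 1323 genes (14%), with 469 (4.95%) higher and 854 (9.01%) lower in the antibiotic group. Of these, 85 higher and 323 lower genes differed at least 2-fold, and 8159 genes did not pass. Higher genes made up 35.4% of these calls on the deposited values, 45.6% after centring and 49.8% after quantile normalization. These counts depended on single arrays. They fell to 820 genes, 271 higher and 549 lower, without antibiotic replicate 1, and to 838 genes, 254 of them higher, without treated wild-type replicate 4. The higher genes numbered 301 without antibiotic replicate 3 and 307 without treated wild-type replicate 2. The 2 comparisons share the 4 antibiotic arrays. List counts against treated wild type are to be read beside 4.95% higher and 9.01% lower over all genes.

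**Figure D1:**
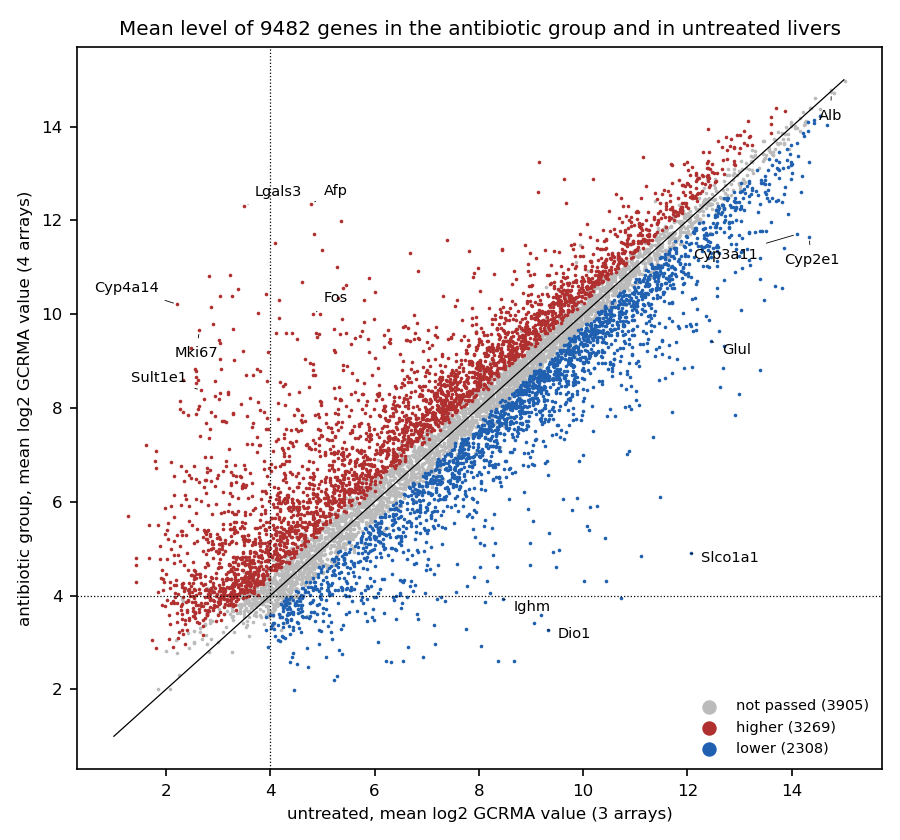
Each point is a gene, with the mean deposited log2 value of the 3 untreated arrays on the x axis and of the 4 antibiotic arrays on the y axis; colours mark genes called higher or lower and dotted lines mark log2 4. The 3269 higher genes include many that lie left of the vertical line at 4 in untreated liver, and Lgals3, Cyp4a14, Afp and Slco1a1 are among the points farthest from the diagonal.

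Some of the changes ran between background and clear signal. In 357 genes every untreated array was under log2 4 and every antibiotic array at 4 or more, and in 325 of these every treated wild-type array was at 4 or more as well. In 89 genes the order was the reverse, and in 71 of these every treated wild-type array was also under 4. Where a group had arrays under 4, a fold is given below as a lower bound, computed with that group's values under 4 set to 4. A further 91 genes were under 4 on all 7 arrays, and 38 of them were called, all as higher. Such genes are given no fold. They passed the filter only through arrays of the other treated groups, so the shared direction of these calls is not read as a result. Genes under 4 on every untreated array likewise passed the filter only through treated arrays, which tilts their calls towards higher.

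The largest difference on the deposited values, part of it under 4, was in Lgals3, which encodes the galactoside-binding lectin galectin-3 of macrophages and injured epithelium. Its log2 values were 2.63, 4.21 and 3.66 on the untreated arrays, 12.43, 11.68, 12.91 and 12.21 on the antibiotic arrays and 12.06, 11.98, 11.16 and 11.30 on the treated wild-type arrays. The antibiotic arrays all lay far above the untreated ones, at least 302-fold on average, a difference of 8.81 ± 0.37 (log2, ± SE; adjusted p = 3.07e-10). Against treated wild type the difference was 0.68 ± 0.34 (adjusted p = 0.205) and did not pass.

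Cdkn1a, which encodes the cyclin-dependent kinase inhibitor p21 and is induced by p53 after DNA damage, was at 3.10, 3.25 and 2.13 in untreated and at 10.76, 10.81, 11.01 and 10.65 in antibiotic livers. The groups were widely separated, at least 112-fold, with a difference of 7.98 ± 0.35 (adjusted p = 4.6e-10). Afp encodes alpha-fetoprotein, the main plasma protein of fetal liver, and rose from 5.60, 4.36 and 4.38 in untreated to 12.51, 12.72, 11.86 and 12.35 in antibiotic livers, a 191-fold difference (7.58 ± 0.35, adjusted p = 6.34e-10) with both groups above 4. The treated wild-type means were 10.61 for Cdkn1a and 12.30 for Afp, and neither gene passed between the treated groups (adjusted p = 0.741 and 0.926).

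At the other end, Slco1a1, a male-biased organic anion uptake transporter of hepatocytes, fell furthest on the deposited values. It was at 12.08, 11.98 and 12.10 in untreated and at 3.56, 4.83, 4.82 and 6.41 in antibiotic livers, with every antibiotic array far below every untreated one. The difference was -7.15 ± 0.67 (adjusted p = 6.86e-07), at least 132-fold lower. Slc22a7, another hepatocyte anion transporter, fell from 10.91, 10.55 and 10.73 in untreated to 3.02, 5.63, 3.55 and 3.59 in antibiotic livers, at least 80-fold (-6.78 ± 0.56, adjusted p = 1.96e-07). Dio1, the deiodinase that activates thyroid hormone in liver, fell at least 34.1-fold, from a mean of 9.32 ± 0.33 (SD, n = 3) to 3.27 ± 1.10 (SD, n = 4; adjusted p = 3.39e-07). Treated wild type stood at 6.73, 5.79, 7.04 and 5.58 for Slc22a7, which was at least 3.67-fold lower with antibiotics (-2.34 ± 0.51, adjusted p = 0.00992).

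Among genes with every one of the 7 arrays at 4 or more, Afp, Mcm5, Rrm2, Anxa2 and Slpi rose most. Anxa2, a membrane-binding annexin, was 82.3-fold higher (4.99 ± 0.66 against 11.36 ± 0.38, adjusted p = 4.34e-10), and the secreted protease inhibitor Slpi was 66.9-fold higher (4.61 ± 0.30 against 10.68 ± 0.74, adjusted p = 1.75e-08). Inmt, an N-methyltransferase, was 33.6-fold lower (12.91 ± 0.32 against 7.85 ± 1.25, adjusted p = 5.05e-06), and the terminal complement component C6 was 24.1-fold lower (10.07 ± 0.19 against 5.48 ± 0.66, adjusted p = 1.98e-06). By contrast, highly expressed genes such as Atp5b, the beta subunit of ATP synthase (13.12 ± 0.05 and 13.13 ± 0.10), and Mpc1, a subunit of the mitochondrial pyruvate carrier (12.28 ± 0.03 and 12.28 ± 0.13), showed the smallest differences, 0.01 ± 0.09 and 0.00 ± 0.12.

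**Figure D2:**
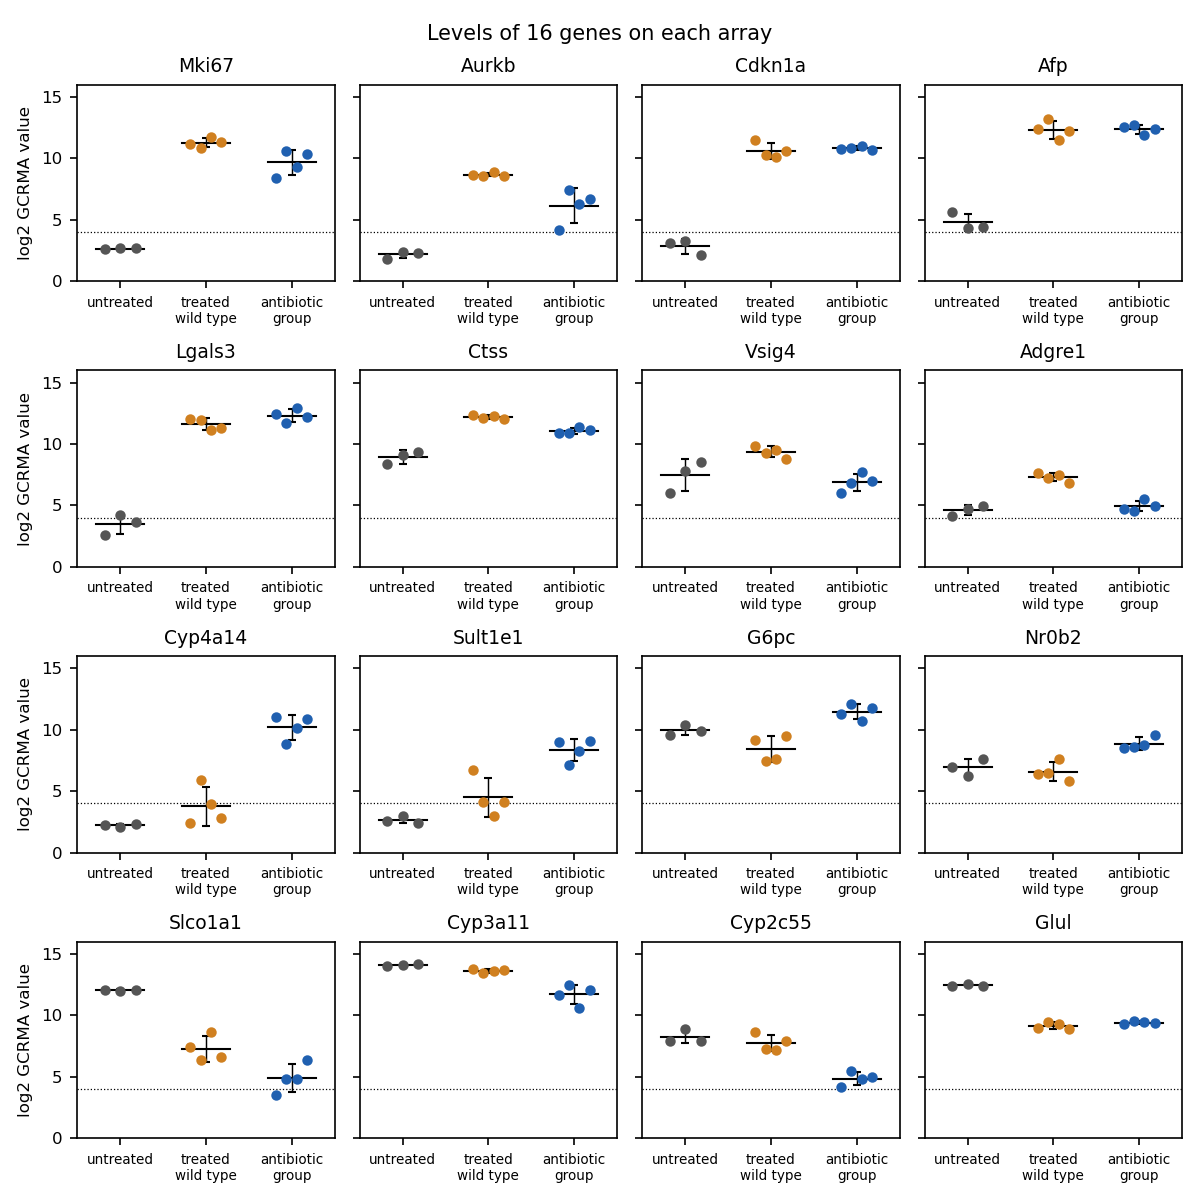
Deposited log2 values of 16 genes on each untreated, antibiotic and treated wild-type array; points are arrays, bars are group means and whiskers are SD, with 3, 4 and 4 arrays. Cyp4a14, Sult1e1, G6pc and Nr0b2 are highest in the antibiotic group, Vsig4 and Adgre1 are highest in treated wild type, and Glul, Lgals3, Cdkn1a and Afp did not pass between the antibiotic and treated wild-type groups.

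Cell division genes rose together. Of 69 measured genes of mitosis, 68 were higher in the antibiotic group and 0 lower, with a median difference of 3.55, against 0.11 over all genes. Only Fam83d did not pass (0.47, adjusted p = 0.235). With values under 4 set to 4, 57 of the genes were higher and the list's median was 2.57. On every untreated array 53 of the genes were under 4. These passed the filter only through treated arrays, so the filter had a part in the count of higher genes. The mean of the list was 3.53, 3.67 and 3.47 on the untreated arrays and 5.98, 7.81, 6.89 and 7.80 on the antibiotic arrays. All 4 antibiotic arrays were above the untreated ones, and replicate 1 was the lowest of them.

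Mki67, Top2a and Ube2c were the mitotic genes called higher with the largest differences and a TTTGAA in the stretch printed below. A chromosome set aside from printing took no part in this choice. The promoters are shown because mitosis genes are known to carry a cell cycle homology region (CHR) and CCAAT boxes close to the transcription start. The sequences are from RefSeq (GRCm38.p6) and run 5′ to 3′ from 250 bases before the start site to 30 after it. They lie at chr7:135716350-135716629 (minus strand), chr11:99024160-99024439 (minus strand) and chr2:164769679-164769958 (plus strand). Capitals mark TTTGAA and CCAAT on either strand, so that TTCAAA and ATTGG are the reverse-strand forms.
Mki67: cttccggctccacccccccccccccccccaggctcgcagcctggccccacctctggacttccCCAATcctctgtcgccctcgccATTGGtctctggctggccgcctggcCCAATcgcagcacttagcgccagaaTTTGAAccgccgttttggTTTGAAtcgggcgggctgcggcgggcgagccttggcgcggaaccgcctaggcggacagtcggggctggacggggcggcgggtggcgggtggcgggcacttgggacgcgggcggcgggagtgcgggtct
Top2a: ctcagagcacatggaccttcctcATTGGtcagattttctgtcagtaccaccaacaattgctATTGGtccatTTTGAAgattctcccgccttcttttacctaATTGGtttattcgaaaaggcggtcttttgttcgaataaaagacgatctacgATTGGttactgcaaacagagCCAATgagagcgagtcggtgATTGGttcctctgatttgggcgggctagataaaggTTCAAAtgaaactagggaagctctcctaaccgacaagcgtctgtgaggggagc
Ube2c: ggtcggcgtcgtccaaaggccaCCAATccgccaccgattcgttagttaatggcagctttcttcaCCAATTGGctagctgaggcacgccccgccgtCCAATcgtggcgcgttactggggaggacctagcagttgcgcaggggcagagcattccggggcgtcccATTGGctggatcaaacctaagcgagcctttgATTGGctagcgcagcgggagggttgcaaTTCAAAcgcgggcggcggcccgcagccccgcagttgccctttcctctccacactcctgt

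Windows of 300 bases, 250 before to 50 after the start, were searched on both strands in the promoter table. TTTGAA was found in 44 of 65 promoters (67.7%) of 58 mitosis genes, in 8 of 40 promoters (20.0%) of 33 DNA replication genes and in 17.9% of all 32851 promoters of the table. CCAAT was found in 73.8% of mitosis, 52.5% of replication and 37.4% of all promoters. Both motifs together were found in 56.9% of mitosis, 7.5% of replication and 6.95% of all promoters. GGCGGGAA, one spelling of an E2F site, was found in 4.62%, 12.5% and 2.19%. A match describes these letters only and is no evidence of binding.

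Mki67, the proliferation marker Ki-67, was at 2.59, 2.66 and 2.67 in untreated and at 8.39, 10.60, 9.27 and 10.37 in antibiotic livers, and 11.16, 10.84, 11.72 and 11.29 in treated wild type. It was at background in every untreated liver and at least 50.5-fold higher in the antibiotic group (7.02 ± 0.44, adjusted p = 1.6e-08). Top2a, the topoisomerase that untangles replicated chromosomes, was at 2.49, 2.41 and 2.51 in untreated and 7.90, 10.11, 9.12 and 9.96 in antibiotic livers, at least 38.7-fold higher (6.80 ± 0.38, adjusted p = 4.61e-09). Ube2c, the ubiquitin-conjugating enzyme of the anaphase-promoting complex, was at least 41.6-fold higher (6.35 ± 0.41, adjusted p = 2.12e-08). The groups did not overlap for any of these genes.

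The antibiotic arrays stood below those of treated wild type in this list. The mean of the list was 8.47, 8.43, 9.08 and 8.78 on the treated wild-type arrays, all above the antibiotic arrays. Of 69 genes, 62 were lower with antibiotics and 0 higher, with a median of -1.47 against -0.03 over all genes, and 41 were lower without treated wild-type replicate 3. Aurkb, the kinase that corrects chromosome attachment, was at 4.19, 7.42, 6.28 and 6.71 with antibiotics and 8.64, 8.56, 8.86 and 8.59 without, a difference of -2.51 ± 0.48 (adjusted p = 0.00542). The mitotic kinesin Kif20a (-2.82 ± 0.66, adjusted p = 0.0126), the spindle-associated Hmmr (-2.69 ± 0.67, adjusted p = 0.0167) and Top2a (-1.40 ± 0.35, adjusted p = 0.0182) were lower as well. Mki67 differed by -1.59 ± 0.41 (adjusted p = 0.0203), which did not pass without antibiotic replicate 1 (0.0516), antibiotic replicate 3 (0.0551) or treated wild-type replicate 3 (0.0558). In a fit of only these 8 arrays, neither Mki67 (0.0532) nor Top2a (0.0685) passed.

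DNA replication showed the same direction against untreated liver, with 40 of 42 genes higher, 1 lower (Mcm10, -2.22) and a median of 3.06. On every untreated array 11 of the genes were under 4, and with values under 4 set to 4, 38 were higher. Mcm5, a subunit of the replicative helicase, was at 4.62, 5.49 and 4.40 in untreated and 11.30, 12.27, 11.72 and 11.61 in antibiotic livers, 118-fold higher with no overlap (6.89 ± 0.24, adjusted p = 6.7e-11). Mcm3, of the same helicase, was at least 51.6-fold higher, and the DNA ligase Lig1 at least 24.3-fold higher (adjusted p = 2.45e-10 and 2.26e-09). Against treated wild type the list's median was -0.53, and 15 genes were lower. That count ranged from 6 without antibiotic replicate 1 to 25 without antibiotic replicate 2, and was 9, 9 and 7 without treated wild-type replicates 2, 3 and 4.

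Of 19 genes of nucleotide supply, 13 were higher and 1 lower. Rrm2, the regulated subunit of the ribonucleotide reductase that makes deoxynucleotides, rose from 4.87, 5.66 and 5.54 in untreated to 11.30, 12.70, 11.88 and 12.09 in antibiotic livers, 99.6-fold (6.64 ± 0.26, adjusted p = 1.98e-10). The antibiotic arrays were apart from the untreated arrays and also below those of treated wild type at 13.17, 12.92, 12.90 and 12.97 (-1.0 ± 0.24, adjusted p = 0.0159). In DNA repair, 30 of 36 genes were higher and 1 lower. Under 4 on every untreated array were 15 of the genes, and with values under 4 set to 4, 22 were higher. Uhrf1, which couples DNA methylation to replication, was at least 84.4-fold higher (adjusted p = 5.37e-11), the checkpoint kinase Chek1 at least 15.2-fold (adjusted p = 6.34e-10) and the chromatin remodeller Hells, which stands outside that list, at least 93.2-fold (adjusted p = 6.7e-11).

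Of 34 cell cycle regulators, 24 were higher and 6 lower (3 without untreated replicate 1). Ccne2, a cyclin of the entry into S phase, was 17.7-fold higher (5.46 ± 0.31 against 9.60 ± 0.72, adjusted p = 1.66e-07), and Ccnd1, the cyclin D1 of growth factor response, 11.6-fold higher (7.81 ± 0.54 against 11.34 ± 0.27, adjusted p = 1.03e-07). Myc was lower (-1.82 ± 0.35, adjusted p = 0.000512). Among 31 p53 targets 15 were higher and 4 lower, beside 34.5% and 24.3% over all genes, with a median of 0.55. Beside Cdkn1a, the antiproliferative gene Btg2 rose from 6.18, 7.52 and 6.58 in untreated to 9.87, 9.71, 10.17 and 10.20 in antibiotic livers (3.23 ± 0.33, adjusted p = 1.59e-06) and stood above treated wild type at 9.61, 8.07, 8.45 and 8.58 (1.31 ± 0.30, adjusted p = 0.0127). Of 25 apoptosis regulators 11 were higher and 6 lower, beside 34.5% and 24.3% over all genes. That balance turned to 7 and 10 after centring and to 8 and 9 after quantile normalization. The caspase activator Apaf1 was at least 4.9-fold higher (adjusted p = 7.03e-06), while Bmf, a BH3-only death promoter, fell from 9.85, 8.92 and 8.84 in untreated to 3.57, 3.81, 3.44 and 3.48 in antibiotic livers, at least 36.9-fold (adjusted p = 6.7e-11).

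Of 18 genes of fetal liver and of liver tumours, 17 were higher and 0 lower, with a median of 2.22. On every untreated array 9 of these were under 4, so the filter had a part in the count. With values under 4 set to 4, 15 were higher and the median was 1.92. Ly6d, a GPI-anchored surface protein, was at 3.31, 3.17 and 3.21 in untreated and 9.96, 10.99, 11.34 and 11.02 in antibiotic livers, at least 113-fold higher with wide separation (7.60 ± 0.58, adjusted p = 1e-07). Of 13 markers of bile duct and ductular cells, 11 were higher and 0 lower, with a median of 1.53. Of these markers 6 were under 4 on every untreated array, and with values under 4 set to 4, 10 were higher. Anxa3, an annexin, was at least 55.6-fold higher, and Prom1, the surface protein CD133, at least 10.3-fold higher (adjusted p = 6.19e-09 and 2.4e-05). In RNA from whole liver, more cells of a type and more RNA per cell cannot be told apart, here and for every cell marker below.

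**Figure D3:**
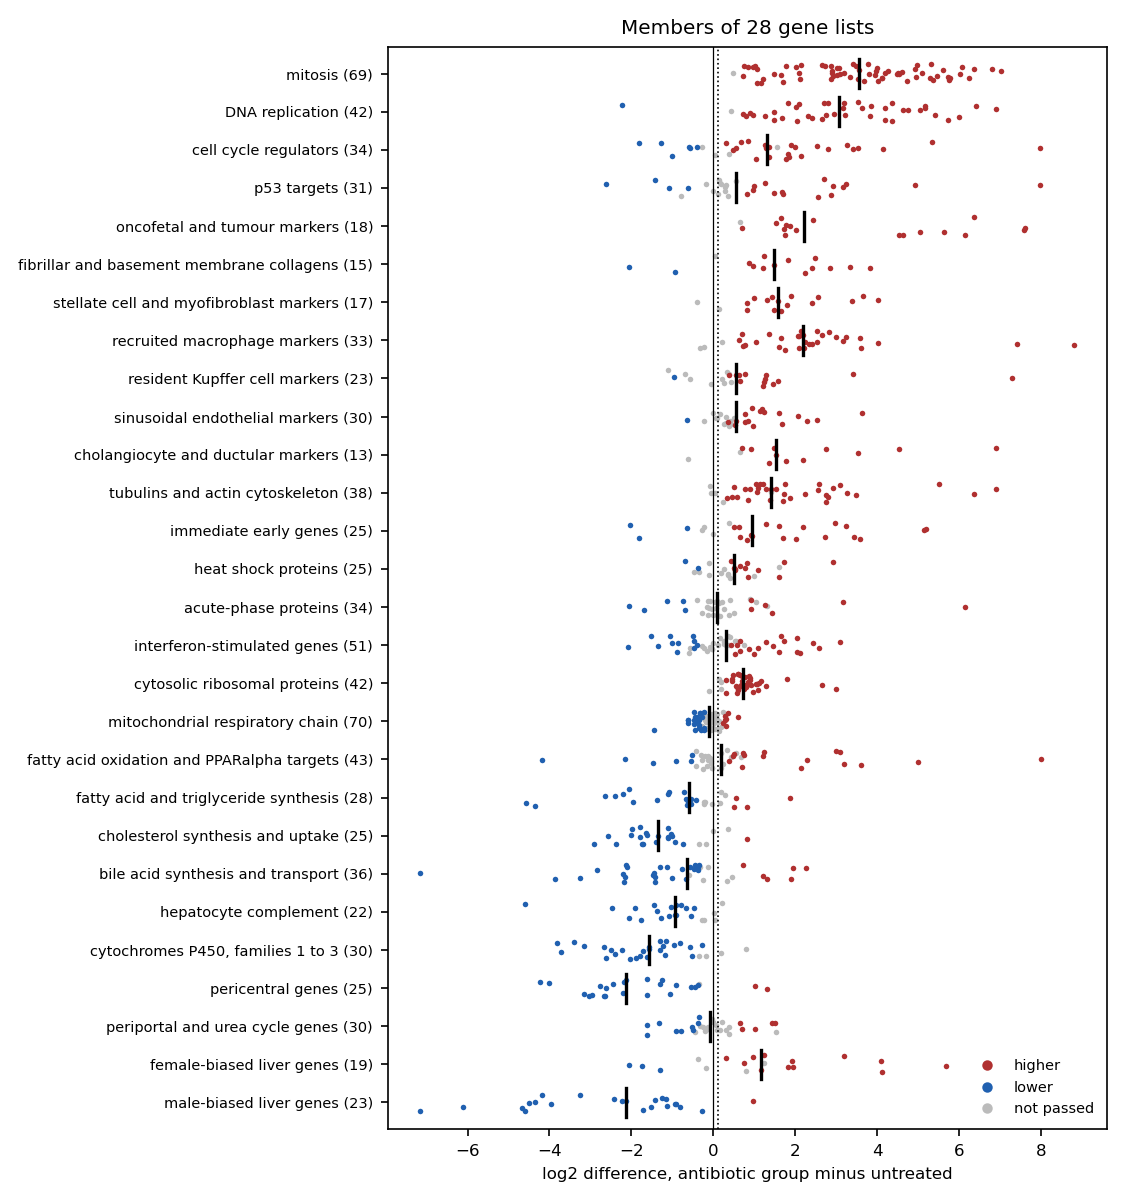
Each row is a gene list, each point one measured member, and the x axis its antibiotic minus untreated difference (log2); black ticks are list medians and the dotted line is the median over all genes at 0.11. Mitosis and DNA replication lie farthest to the right, with medians of 3.55 and 3.06, and pericentral and male-biased genes farthest to the left, with medians of -2.14 and -2.13.

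Macrophage genes rose unevenly. Of 33 genes marking recruited macrophages, 30 were higher than in untreated liver and 0 lower, with a median of 2.18. On every untreated array 12 of them were under 4, so the filter had a part in this count. With values under 4 set to 4, 24 were higher and the median was 1.76. Of 23 genes marking resident Kupffer cells, 13 were higher and 1 lower, with a median of 0.55. Cd68, a lysosomal glycoprotein of macrophages listed here with Kupffer cells, was at 2.60, 2.94 and 3.05 in untreated and 10.28, 9.35, 10.87 and 10.10 in antibiotic livers, at least 71-fold higher (7.29 ± 0.30, adjusted p = 2.6e-10). Marco, a scavenger receptor, was at least 6.24-fold higher (adjusted p = 3.54e-06). Clec7a, the beta-glucan receptor Dectin-1, was at least 13.5-fold higher (adjusted p = 1.03e-07). In treated wild type Cd68 was at 9.72, 8.98, 9.37 and 9.11. Its antibiotic minus treated wild-type difference of 0.86 ± 0.28 did not pass on the deposited values (adjusted p = 0.056). Among other settings, it passed after centring (0.0427), after quantile normalization (0.0396) and without antibiotic replicate 2 (0.0083) or treated wild-type replicate 1 (0.046).

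Vsig4, Cd5l, Adgre1 and Clec4f belong to the Kupffer cell list and to the fixed set of genes. These genes did not pass against untreated liver and were lower than in treated wild type. Of all 23 genes of the list, 13 were higher than untreated and 1 lower. Vsig4, the complement receptor of Kupffer cells, was at 6.01, 7.83 and 8.55 in untreated, 6.0, 6.86, 7.69 and 7.0 in antibiotic and 9.87, 9.27, 9.52 and 8.78 in treated wild-type livers. The antibiotic arrays overlapped the untreated ones and all lay below treated wild type. The difference was -2.47 ± 0.45 from treated wild type (adjusted p = 0.00392) and -0.58 ± 0.48 from untreated (adjusted p = 0.32). Without untreated replicate 1, the lowest of its group, the latter was -1.30 and passed (adjusted p = 0.0115). Cd5l, a secreted macrophage survival protein, was at 7.34, 8.30 and 8.57 in untreated, 7.37, 8.16, 8.65 and 7.89 in antibiotic and 10.14, 10.10, 9.77 and 9.76 in treated wild-type livers. It differed by -0.05 ± 0.28 from untreated (adjusted p = 0.896) and by -1.92 ± 0.26 from treated wild type (adjusted p = 0.000992).

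Adgre1, which encodes the macrophage surface protein F4/80, was at 4.14, 4.71 and 4.94 in untreated, 4.74, 4.56, 5.52 and 4.95 in antibiotic and 7.67, 7.27, 7.45 and 6.83 in treated wild-type livers. It was 5.14-fold lower than in treated wild type (-2.36 ± 0.23, adjusted p = 0.000137) and differed by 0.34 ± 0.25 from untreated (adjusted p = 0.245). Clec4f, a lectin restricted to Kupffer cells, was at 6.67 ± 1.22 in untreated, 5.56 ± 0.44 in antibiotic and 7.23 ± 0.59 in treated wild-type livers. Its difference from untreated was -1.11 ± 0.47 (adjusted p = 0.0522) and from treated wild type -1.67 ± 0.43 (adjusted p = 0.0201), the latter not passing without antibiotic replicate 1 (0.0535) or treated wild-type replicate 1 (0.0565). The difference of Clec4f from untreated passed without untreated replicate 1 (-1.81, adjusted p = 0.00112), without antibiotic replicate 3 (adjusted p = 0.0408), after centring (adjusted p = 0.0264) and after quantile normalization (adjusted p = 0.0142). The mean of the whole Kupffer list was 6.17 to 6.94 in untreated, 7.25 to 7.89 in antibiotic and 8.14 to 8.54 in treated wild-type livers. Of its members, 14 genes were lower and 1 higher than in treated wild type, beside 9.01% and 4.95% over all genes. The median was -0.97. The lower genes numbered 8 without antibiotic replicate 1 or treated wild-type replicate 1, and 9 without treated wild-type replicate 3.

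Recruited macrophage genes were also lower than in treated wild type, 21 of 33 against 1 higher, with a median of -1.11. Ctss, the protease cathepsin S of antigen-presenting cells, was at 8.33, 9.13 and 9.36 in untreated, 10.87, 10.88, 11.36 and 11.15 in antibiotic and 12.33, 12.08, 12.27 and 12.02 in treated wild-type livers. It stood apart from both, higher than untreated (2.13 ± 0.22, adjusted p = 1.6e-06) and lower than treated wild type (-1.11 ± 0.20, adjusted p = 0.00392). The chemokine Ccl6 (-1.14 ± 0.27, adjusted p = 0.0144) and the lysozyme Lyz1 (-1.17 ± 0.29, adjusted p = 0.0152) had the same order of means, 4.51, 7.97 and 9.11 for Ccl6. S100a6, a calcium-binding protein counted in the list but present in many injured cells, went the other way, from 4.26, 3.82 and 4.18 in untreated to 11.29, 11.10, 11.75 and 11.90 in antibiotic livers, with treated wild type at 10.12, 10.45, 10.21 and 10.21. It was at least 165-fold higher than untreated (adjusted p = 1.33e-10) and 2.4-fold higher than treated wild type (1.26 ± 0.26, adjusted p = 0.00781).

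**Figure D4:**
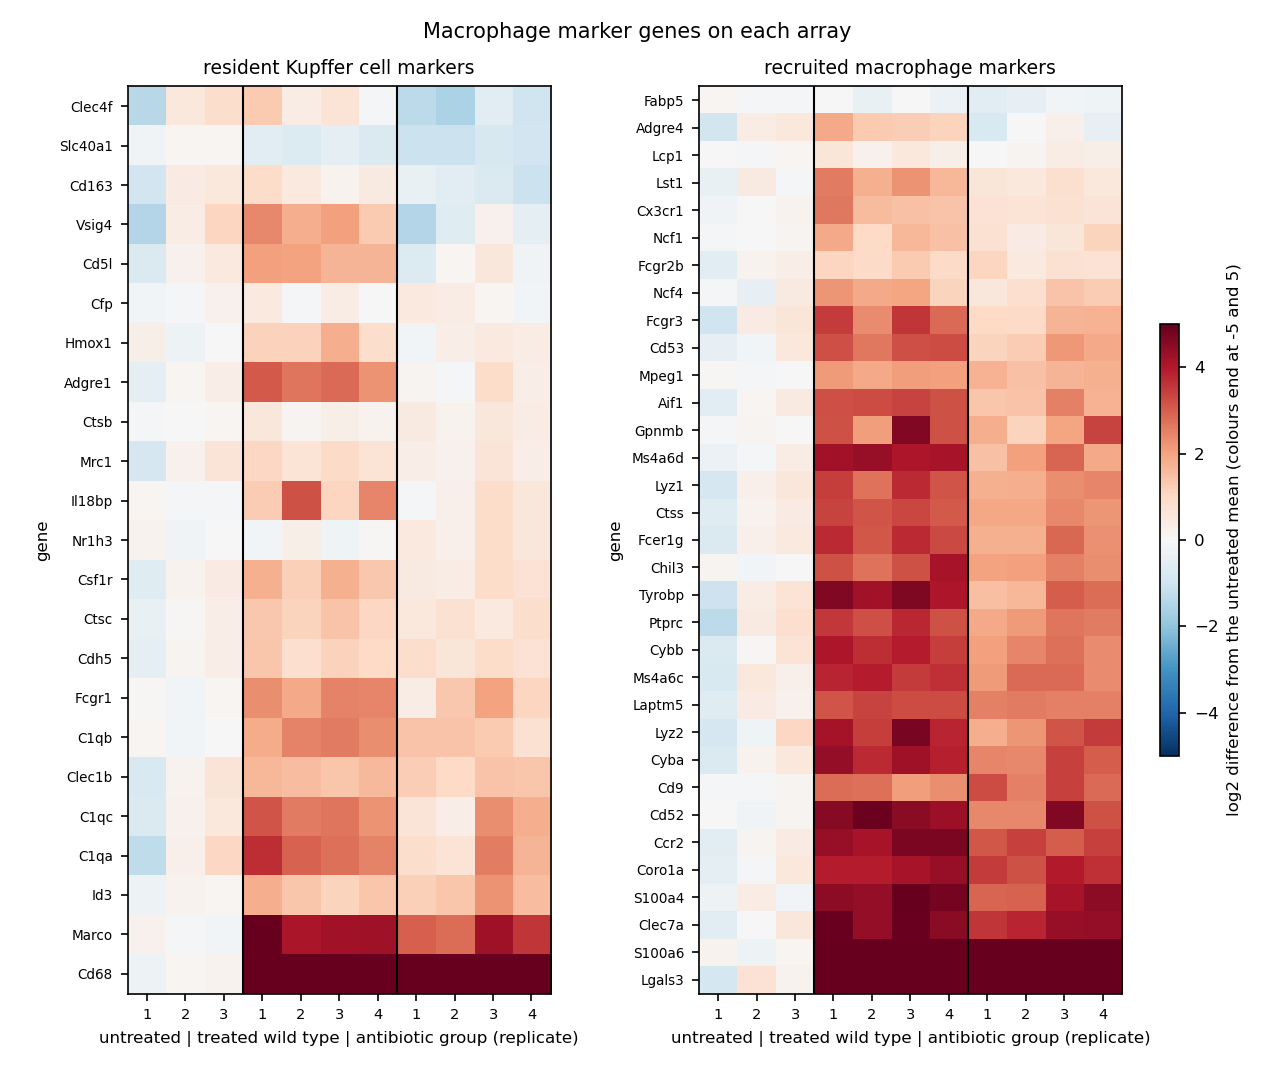
Heat map of the resident Kupffer cell and recruited macrophage markers (rows) on the untreated, antibiotic and treated wild-type arrays (columns); colour is the log2 difference from the untreated mean of the gene, ending at -5 and 5. Most recruited markers are higher in both treated groups and highest in treated wild type, while Vsig4, Cd5l and Adgre1 did not pass between the antibiotic and untreated groups.

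Few markers of other leukocytes passed the filter. Of neutrophil markers, Lcn2, which hepatocytes also make in inflammation, rose from 3.80, 4.14 and 4.54 in untreated to 9.38, 9.53, 10.66 and 11.68 in antibiotic livers (6.15 ± 0.64, adjusted p = 1.92e-06). S100a8, a calprotectin subunit of neutrophils, was under 4 on all 7 arrays (2.72, 2.53 and 2.45 in untreated and 2.95, 3.42, 3.90 and 3.83 in antibiotic livers), so that no fold is given, and its call against untreated (adjusted p = 0.0222) did not pass without antibiotic replicate 3 (0.062), antibiotic replicate 4 (0.0553), untreated replicate 2 (0.0567) or untreated replicate 3 (0.0663), nor after centring (0.0517) or quantile normalization (0.86). It was at 6.52, 5.11, 5.80 and 5.93 in treated wild type, where it stood above the antibiotic arrays by at least 3.58-fold (adjusted p = 0.00084). Of 7 B and plasma cell markers 2 were higher and 2 lower, with a median of -0.04; after centring 0 were higher and 3 lower. Ighm, the immunoglobulin heavy chain of B cells, fell from 8.46, 8.27 and 8.63 in untreated to 4.43, 3.78, 3.81 and 3.71 in antibiotic livers, at least 20.4-fold (adjusted p = 7.99e-09). The 2 higher members, the B cell receptor partner Cd72 (0.63 ± 0.26, adjusted p = 0.0477) and the syndecan Sdc1 (0.44 ± 0.17, adjusted p = 0.0364), differed less, and each lost its call without any 1 of several arrays, Cd72 without antibiotic replicate 3 (0.0919) or 4 (0.0568) or untreated replicate 1 (0.0853), 2 (0.128) or 3 (0.078), and Sdc1 without antibiotic replicate 1 (0.0942) or 2 (0.109) or untreated replicate 1 (0.0533), 2 (0.0879) or 3 (0.0976). Ctss belongs also to the MHC class II presentation list, in which 5 of 7 genes were higher (3 after quantile normalization) and 1 lower. H2-Aa, a class II chain, was 2.23-fold higher (5.43 ± 0.51 against 6.59 ± 0.22, adjusted p = 0.000468).

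The genes that sense bacterial products were of interest because of the antibiotic treatment. Tlr4 itself did not pass the filter: it lay between 1.99 and 2.65 in untreated and between 2.28 and 3.09 in antibiotic livers. Of 21 measured genes of lipopolysaccharide recognition and TLR signalling, 10 were higher and 3 lower (5 without antibiotic replicate 1), with a median of 0.43, and after quantile normalization 4 were higher and 4 lower. Cd14, the co-receptor that hands lipopolysaccharide to Tlr4, was at 2.63, 2.61 and 2.49 in untreated and 8.14, 8.12, 9.04 and 8.86 in antibiotic livers, at least 23.3-fold higher with no overlap (5.96 ± 0.26, adjusted p = 4.4e-10). In treated wild type it was at 8.15, 7.90, 7.64 and 7.45 and the difference of 0.75 ± 0.24 did not pass on the deposited values (adjusted p = 0.0537), though it did after centring (0.0396), after quantile normalization (0.0362) and without antibiotic replicate 1 (0.0478), antibiotic replicate 2 (0.0286) or treated wild-type replicate 1 (0.0446).

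Ly86, the partner protein MD-1 of the receptor homologue RP105, was at 3.31, 4.04 and 4.55 in untreated, 5.74, 5.87, 6.35 and 6.08 in antibiotic and 8.25, 7.11, 7.74 and 7.11 in treated wild-type livers. It was at least 3.52-fold higher than untreated (adjusted p = 4.16e-05) and 2.91-fold lower than treated wild type (adjusted p = 0.00347). Tlr13, a receptor for bacterial ribosomal RNA, had the same order of means, 2.57, 4.37 and 5.66, and was lower than in treated wild type (-1.29 ± 0.16, adjusted p = 0.000481). The mean of the recruited macrophage list had that order too, with 4.69 to 5.48 in untreated, 7.19 to 7.84 in antibiotic and 8.22 to 8.58 in treated wild-type livers, and its part in these differences was not tested. Lbp, the plasma protein that carries lipopolysaccharide, differed from untreated by 0.10 ± 0.33 (adjusted p = 0.813). Lbp was called higher than in treated wild type, but not in a fit of only these 2 groups (1.13, adjusted p = 0.0573). The call was also lost without antibiotic replicate 3 (0.055) or 4 (0.0619), or without treated wild-type replicate 1 (0.0536), 2 (0.0703) or 4 (0.0629).

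Of 23 NF-kB targets, cytokines and chemokines, 8 were higher and 6 lower, shares near the 34.5% and 24.3% over all genes, with a median of 0.31 on the deposited values and -0.01 after quantile normalization. The neutrophil chemokine Cxcl2 was at 2.08, 2.19 and 2.22 in untreated and 4.98, 2.86, 4.30 and 4.73 in antibiotic livers (2.06 ± 0.38, adjusted p = 0.000315), close to background but apart from the untreated arrays, and at 2.90, 2.33, 2.50 and 2.80 in treated wild type (1.58 ± 0.35, adjusted p = 0.00983). The endothelial adhesion molecule Vcam1 was 7.17-fold higher (5.34 ± 0.83 against 8.18 ± 0.40, adjusted p = 4.6e-06). Tnf, Il1b and Il6 did not pass the filter and were at most 2.24, 2.86 and 1.49 on the antibiotic arrays. Of 34 acute-phase proteins 6 were higher and 5 lower (8 after centring), beside 34.5% and 24.3% over all genes, with a median of 0.09. Saa3, the serum amyloid A of macrophages and other cells outside hepatocytes, was 8.97-fold higher (6.58 ± 0.45 against 9.74 ± 0.88, adjusted p = 0.00202), while hepatocyte Saa1 differed by 0.40 ± 0.95 (adjusted p = 0.737).

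Of 51 interferon-stimulated genes 19 were higher and 11 lower, shares near the 34.5% and 24.3% over all genes, and after quantile normalization 11 were higher and 12 lower. Oas1a, an activator of antiviral RNA decay, was at 3.95, 4.40 and 4.42 in untreated, 7.52, 7.59, 7.33 and 7.0 in antibiotic and 8.07, 9.51, 8.51 and 9.27 in treated wild-type livers. It was at least 8.5-fold higher than untreated (adjusted p = 1.19e-06) and 2.79-fold lower than treated wild type (adjusted p = 0.00539). Ifi27l2a, an interferon-induced mitochondrial protein, showed the same order with means of 5.45, 8.04 and 9.75 (adjusted p = 8.35e-07 and 0.000861). Over the list 10 genes were lower than in treated wild type, beside 9.01% over all genes. That count dropped to 4 without antibiotic replicate 1 or treated wild-type replicate 4 and to 5 without treated wild-type replicate 2.

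Matrix and stellate cell genes rose. Of 17 markers of stellate cells and myofibroblasts 15 were higher and 0 lower, with a median of 1.59. Acta2, smooth muscle actin of activated stellate cells, was at 5.27, 5.41 and 4.97 in untreated and 8.84, 9.05, 9.84 and 9.23 in antibiotic livers, 16.3-fold higher with no overlap (4.02 ± 0.23, adjusted p = 4.62e-09). It was at 10.91, 10.03, 10.20 and 10.21 in treated wild type and 2.14-fold lower with antibiotics (-1.10 ± 0.21, adjusted p = 0.00528). Tpm1, a tropomyosin, was 10.4-fold higher than untreated (6.18 ± 0.38 against 9.56 ± 0.43, adjusted p = 1.17e-07).

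Of 15 collagens 12 were higher and 2 lower than untreated, with a median of 1.48. Against treated wild type 7 were lower (4 without antibiotic replicate 1), beside 9.01% over all genes. Col5a2, a fibrillar collagen chain, was at 3.61, 3.55 and 4.05 in untreated, 6.42, 6.58, 7.70 and 7.56 in antibiotic and 9.21, 8.70, 9.19 and 9.18 in treated wild-type livers. The 3 groups did not overlap: it was at least 8.27-fold higher than untreated (adjusted p = 4.2e-07) and 4.01-fold lower than treated wild type (-2.0 ± 0.27, adjusted p = 0.000992). Col1a1, the main scar collagen, was at 1.76, 2.12 and 2.41 in untreated and 5.03, 5.90, 6.44 and 6.32 in antibiotic livers, at least 3.79-fold higher (adjusted p = 5.76e-06). Of 30 matrix glycoproteins and remodelling genes 22 were higher and 0 lower. Under 4 on every untreated array were 12 of them, and with values under 4 set to 4, 17 were higher. Nid1, a basement membrane linker, was 29.5-fold higher (5.90 ± 1.07 against 10.78 ± 0.25, adjusted p = 5.41e-08), and treated wild type was at 10.90 ± 0.07. Of 30 sinusoidal endothelial markers 17 were higher and 1 lower. Lyve1, the hyaluronan receptor of these cells, was at least 5.18-fold higher (adjusted p = 6.14e-05).

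Of 40 growth factors and receptors 18 were higher and 10 lower, beside 34.5% and 24.3% over all genes. After centring 13 were higher and 11 lower, and after quantile normalization 13 and 10. Hgf, a mitogen for hepatocytes that stellate and endothelial cells secrete, was 2.58-fold higher (5.14 ± 0.24 against 6.51 ± 0.38, adjusted p = 0.000276). Igfbp1, which binds insulin-like growth factors, was 17-fold higher (9.16 ± 0.61 against 13.25 ± 0.08, adjusted p = 3.45e-09), and the matricellular gene Ccn2 was 22.4-fold higher (6.0 ± 1.21 against 10.48 ± 0.32, adjusted p = 1.94e-06). The ligand gene Ereg did not pass the filter, with 2.28 to 2.62 in untreated and 2.83 to 3.24 in antibiotic livers. Cytoskeletal genes were higher in 33 of 38 cases and lower in 0, with a median of 1.40. The tubulin gene Tubb6 rose at least 40.9-fold (adjusted p = 3.28e-10).

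Immediate early genes, which encode rapidly induced transcription factors and related proteins, were higher in 18 of 25 cases and lower in 3, with a median of 0.95. Fos, a subunit of AP-1, was at 3.72, 6.18 and 4.55 in untreated and 10.23, 9.75, 10.15 and 9.86 in antibiotic livers, at least 33.9-fold higher (5.18 ± 0.48, adjusted p = 6.3e-07). Ier3, an early gene linked to survival, was at 2.62, 3.28 and 3.64 in untreated and 8.02, 8.27, 8.27 and 8.66 in antibiotic livers and did not overlap, at least 19.8-fold higher (5.13 ± 0.43, adjusted p = 2.55e-07). Treated wild type was at 6.42, 6.51, 5.77 and 6.47, lower than the antibiotic group (2.01 ± 0.40, adjusted p = 0.00623). Over the list 7 genes were higher and 0 lower than in treated wild type, beside 4.95% and 9.01% over all genes. The median was 0.44, and 4 were higher without antibiotic replicate 4 or treated wild-type replicate 2.

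Of 31 genes of the integrated stress response and amino acid synthesis 14 were higher and 5 lower (3 without antibiotic replicate 3 or untreated replicate 1), and after centring 12 were higher and 9 lower. Psat1, of the serine synthesis pathway, was at 2.79, 2.77 and 3.48 in untreated and 9.49, 9.51, 9.43 and 9.40 in antibiotic livers, at least 43.9-fold higher with close replicates (6.44 ± 0.18, adjusted p = 2.22e-11). Phgdh, the first enzyme of that pathway, was at least 14.4-fold higher (adjusted p = 2.68e-06). Of 25 heat shock proteins 12 were higher and 2 lower (10 and 6 after centring), and the small heat shock protein Hspb1 was at least 6.38-fold higher (adjusted p = 0.00218). Of 32 endoplasmic reticulum stress genes 12 were higher and 7 lower, shares near the 34.5% and 24.3% over all genes, and after centring 7 were higher and 12 lower. NRF2 targets were higher in 12 and lower in 12 of 39 cases, beside 34.5% and 24.3% over all genes. After centring 8 were higher and 15 lower. Akr1b8, an aldo-keto reductase, was at least 2.98-fold higher and Me1, malic enzyme, 5.23-fold lower (adjusted p = 9.44e-06 and 1.54e-08).

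Hepatocyte functions around the central vein were lower. Of 25 pericentral genes 22 were lower and 2 higher, with a median of -2.14. Glul, glutamine synthetase of the cells next to the central vein, was at 12.40, 12.57 and 12.40 in untreated and 9.33, 9.53, 9.46 and 9.35 in antibiotic livers, 8.24-fold lower with no overlap (-3.04 ± 0.20, adjusted p = 1.8e-08), and at 8.97, 9.45, 9.33 and 8.93 in treated wild type. Cyp2e1, which activates CCl4, was at 14.23, 14.36 and 14.40 in untreated and 11.14, 11.31, 11.83 and 12.33 in antibiotic livers, 6.38-fold lower (-2.67 ± 0.35, adjusted p = 1.62e-05). In both genes the antibiotic and treated wild-type arrays did not pass against each other (adjusted p = 0.395 and 0.21). Among 30 periportal and urea cycle genes 5 were higher (3 without untreated replicate 1, after centring or after quantile normalization) and 9 lower. Over all genes 34.5% were higher and 24.3% lower. The median of the periportal list was -0.09. Otc, a urea cycle enzyme, was 3.05-fold lower (13.39 ± 0.03 against 11.78 ± 0.27, adjusted p = 2.38e-06), and Cdh1, the adhesion protein E-cadherin, 2.85-fold higher (10.13 ± 0.33 against 11.64 ± 0.21, adjusted p = 1.25e-05). Alb, the albumin gene, differed by -0.02 ± 0.10 (adjusted p = 0.859).

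Of 30 cytochromes P450 of the drug-metabolising families 26 were lower and 0 higher, with a median of -1.58. Cyp3a11, a main drug-oxidising P450, was at 14.01, 14.13 and 14.19 in untreated, 11.70, 12.48, 10.61 and 12.07 in antibiotic and 13.80, 13.44, 13.62 and 13.68 in treated wild-type livers. The antibiotic arrays lay below both other groups, 5.27-fold below untreated (adjusted p = 1.59e-05) and 3.79-fold below treated wild type (-1.92 ± 0.29, adjusted p = 0.00169). Cyp2c55, another member induced by foreign compounds, had the same order at 7.96, 8.89 and 7.95 in untreated, 4.20, 5.44, 4.82 and 4.99 in antibiotic and 8.62, 7.26, 7.20 and 7.91 in treated wild-type livers. It was 10.6-fold lower than untreated (adjusted p = 2.28e-05) and 7.37-fold lower than treated wild type (adjusted p = 0.00152).

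Cyp2c37, another P450, was at 10.84 ± 0.05 in untreated, 7.03 ± 0.69 in antibiotic and 5.32 ± 0.63 in treated wild-type livers, lower than untreated (adjusted p = 4.71e-06) but higher than treated wild type by 1.70 ± 0.40 (adjusted p = 0.0138). Over the list 5 genes were higher and 7 lower than in treated wild type, beside 4.95% and 9.01% over all genes. The lower genes numbered 4 without antibiotic replicate 3 or treated wild-type replicate 2. Of 42 conjugation enzymes and drug receptors 29 were lower and 4 higher than untreated. Ugt3a1, a glycosyltransferase, was at least 9.87-fold lower and Sult5a1, a sulfotransferase, at least 7.64-fold lower (adjusted p = 1.81e-09 and 1.91e-06). The Cyp2c, Cyp3a, Cyp4a and Ugt2b families hold near-identical genes whose probes may cross-hybridise, so values of single members are uncertain.

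Genes expressed more in male liver were lower in 22 of 23 cases and higher in 1, with a median of -2.13, and female-biased genes were higher in 12 of 19 and lower in 3 (5 after quantile normalization), with a median of 1.17. All mice were male. Hsd3b5, a male-specific steroid dehydrogenase, was at 13.11, 12.94 and 12.88 in untreated and 6.34, 8.73, 9.13 and 8.99 in antibiotic livers, 25.7-fold lower with no overlap and with replicate 1 lowest (adjusted p = 8.02e-06). Sult1e1, the oestrogen sulfotransferase, was at 2.61, 3.01 and 2.42 in untreated, 9.02, 7.16, 8.23 and 9.10 in antibiotic and 6.76, 4.15, 2.96 and 4.15 in treated wild-type livers. The antibiotic arrays were above both other groups, at least 20.8-fold above untreated (5.69 ± 0.69, adjusted p = 7.94e-06) and higher than treated wild type by 3.87 ± 0.64 (adjusted p = 0.00256). Abcd2, a peroxisomal fatty acid transporter, was at least 7.72-fold higher than untreated (adjusted p = 1.96e-06), with treated wild type at 6.53 ± 0.65.

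In the list of fatty acid oxidation and PPARalpha targets, 16 of 43 genes were higher and 6 lower than untreated, and after centring 13 and 12. The share of higher genes was near the 34.5% over all genes, where 24.3% were lower. Cyp4a14, a fatty acid hydroxylase and PPARalpha target, was at 2.23, 2.07 and 2.36 in untreated, 11.02, 8.81, 10.15 and 10.85 in antibiotic and 2.38, 5.89, 3.97 and 2.78 in treated wild-type livers. It was under 4 on every untreated array and between 2.38 and 5.89 in treated wild type, all below the antibiotic arrays, and was at least 73.9-fold higher than untreated (7.99 ± 0.79, adjusted p = 1.15e-06). Against treated wild type it was at least 53.2-fold higher (6.45 ± 0.73, adjusted p = 0.000401), the largest difference among genes that passed between these groups. Vnn1, a pantetheinase and PPARalpha target, was at least 26.9-fold higher than untreated (adjusted p = 6.28e-06) with treated wild type at 8.77 ± 0.59 and antibiotic at 8.79 ± 0.45.

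Against treated wild type 17 genes of that list were higher and 1 lower, with a median of 0.50, beside 4.95% higher and 9.01% lower over all genes. The higher genes numbered 10, 11 and 10 without antibiotic replicates 1, 3 and 4, and 10 and 8 without treated wild-type replicates 1 and 4. Acot3, a peroxisomal acyl-CoA thioesterase named for its difference from treated wild type, was at 2.66, 5.65 and 3.98 in untreated, 8.03, 5.73, 7.80 and 7.60 in antibiotic and 2.91, 4.17, 5.05 and 3.14 in treated wild-type livers, with the antibiotic arrays on top. It was at least 6.68-fold higher than untreated (adjusted p = 0.0022) and differed from treated wild type by 3.47 ± 0.70 (adjusted p = 0.00638).

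Synthesis of fatty acids and triglycerides was lower in 17 of 28 genes and higher in 4, with a median of -0.59. Fasn, fatty acid synthase, was at 10.64, 11.25 and 11.15 in untreated, 7.98, 8.60, 8.14 and 8.74 in antibiotic and 11.15, 9.65, 9.43 and 9.78 in treated wild-type livers. It was 6.28-fold lower than untreated (adjusted p = 2.88e-05) and 3.11-fold lower than treated wild type (-1.63 ± 0.34, adjusted p = 0.00785). Elovl3, a fatty acid elongase, was 20.6-fold lower than untreated (10.27 ± 0.16 against 5.91 ± 1.44, adjusted p = 3.56e-05). Cholesterol synthesis and uptake genes were lower in 20 of 25 cases and higher in 1, with a median of -1.35. Against treated wild type 12 of the list were lower and 4 higher, beside 9.01% and 4.95% over all genes. Msmo1, a sterol methyl oxidase, was at 11.95, 12.18 and 12.39 in untreated, 9.21, 10.21, 9.73 and 10.02 in antibiotic and 10.98, 11.52, 11.49 and 10.84 in treated wild-type livers, below both other groups (adjusted p = 3.02e-05 and 0.00936).

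Of 21 lipid droplet and lipid uptake genes 10 were higher and 3 lower than untreated. Cd36, the fatty acid translocase, was at least 14.1-fold higher (adjusted p = 6.24e-05), and Fabp4, a fatty acid carrier of fat and endothelial cells, 4.85-fold higher (7.87 ± 0.11 against 10.14 ± 0.22, adjusted p = 2.32e-08). In glucose metabolism 15 of 31 genes were higher and 10 lower, beside 34.5% and 24.3% over all genes. G6pc, the glucose-6-phosphatase that releases glucose from liver, was at 9.56, 10.35 and 9.91 in untreated, 11.29, 12.09, 10.74 and 11.79 in antibiotic and 9.16, 7.49, 7.62 and 9.51 in treated wild-type livers. Its arrays did not overlap with untreated, but the difference of 1.54 ± 0.64 did not pass (adjusted p = 0.0526; 0.0423 without antibiotic replicate 3). G6pc was 8.18-fold higher than treated wild type (3.03 ± 0.60, adjusted p = 0.00602). Pdk4, the kinase that limits glucose oxidation, was at least 3.63-fold higher than untreated (adjusted p = 0.000415).

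Of 36 genes of bile acid synthesis and transport 24 were lower and 6 higher. Cyp7a1, which sets the rate of bile acid production from cholesterol, was at 11.34, 11.28 and 11.73 in untreated and 10.24, 9.0, 9.29 and 8.70 in antibiotic livers, 4.41-fold lower (adjusted p = 0.00437). Cyp7b1, of the alternative pathway, was at 14.09, 13.63 and 13.72 in untreated, 10.0, 10.81, 10.31 and 11.08 in antibiotic and 11.83, 12.14, 12.39 and 12.27 in treated wild-type livers, lowest with antibiotics (-3.26 ± 0.28 and -1.61 ± 0.26, adjusted p = 2.89e-07 and 0.00229). Nr0b2, the bile acid-induced repressor SHP, was at 6.93, 6.26 and 7.59 in untreated, 8.51, 8.61, 8.78 and 9.60 in antibiotic and 6.43, 6.44, 7.64 and 5.80 in treated wild-type livers, highest with antibiotics. It was 3.87-fold higher than untreated (adjusted p = 0.000639) and 4.93-fold higher than treated wild type (2.30 ± 0.36, adjusted p = 0.00204). Nr0b2 is one of 33 hepatocyte transcription factors, of which 7 were higher and 15 lower than untreated. Bcl6, a repressor, was 4.55-fold lower than untreated and 4.28-fold lower than treated wild type (adjusted p = 0.00242 and 0.0122).

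**Figure D5:**
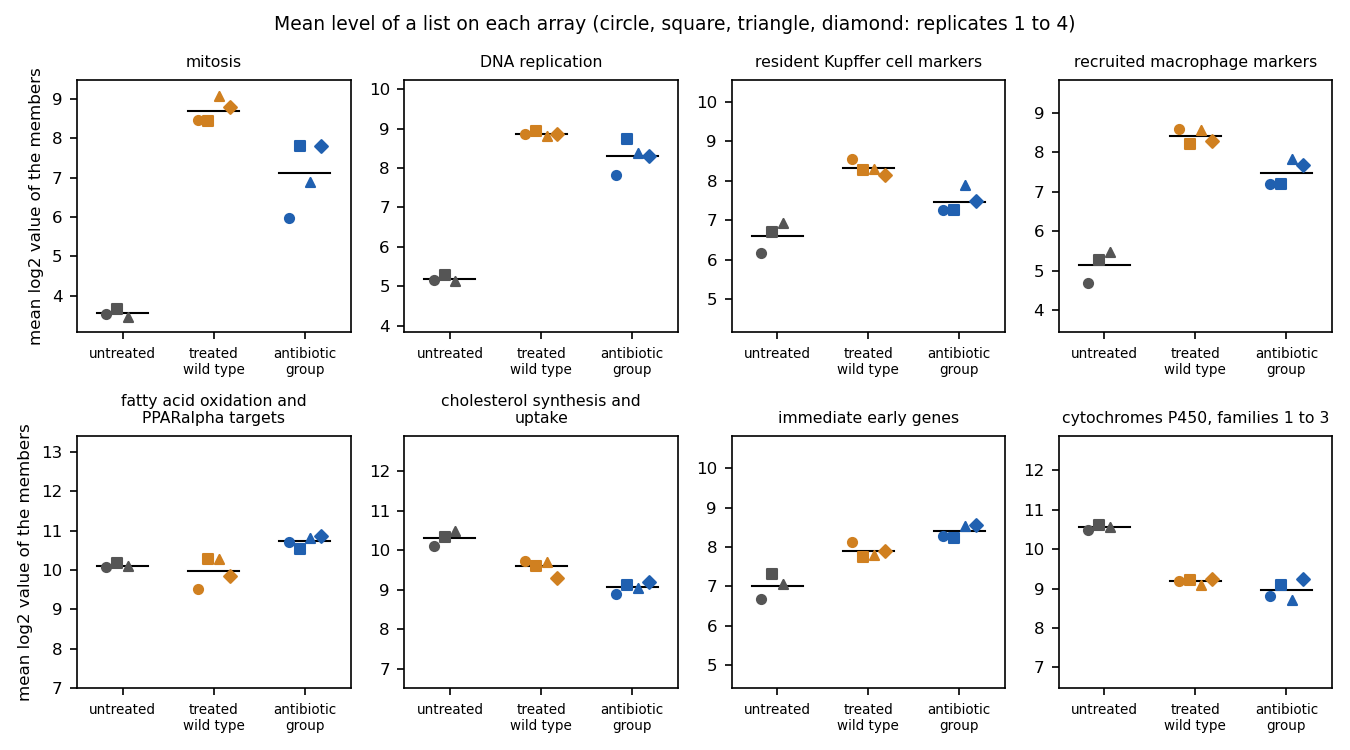
Mean deposited log2 value of the measured members of 8 gene lists on each untreated, antibiotic and treated wild-type array; points are arrays and bars are group means, and every y axis spans the same number of log2 units. For mitosis the antibiotic arrays (5.98, 7.81, 6.89 and 7.80) lie between the untreated and the treated wild-type arrays.

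Proteins that hepatocytes secrete were mostly lower or did not pass. Of 51 plasma proteins and coagulation factors 28 were lower and 3 higher. Serpina6, the corticosteroid-binding globulin, was 13.9-fold lower (10.88 ± 0.09 against 7.09 ± 0.55, adjusted p = 6.34e-07), and Igfals, which stabilises circulating insulin-like growth factors, 5.73-fold lower (8.58 ± 0.08 against 6.06 ± 0.50, adjusted p = 1.23e-05). Of 22 complement genes 17 were lower and 0 higher, with a median of -0.93. The complement protease C2 was 4.15-fold lower (11.02 ± 0.12 against 8.96 ± 0.29, adjusted p = 1.35e-06). In methionine and sulphur amino acid metabolism 12 of 22 genes were lower and 4 higher: Csad, of taurine synthesis, was 19-fold lower and Nnmt, the nicotinamide methyltransferase, 14.1-fold higher (adjusted p = 2.57e-05 and 0.00379).

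Of 32 genes of iron and haem handling 7 were higher and 12 lower, beside 34.5% and 24.3% over all genes. Hamp2, a hepcidin gene, was 4.21-fold lower (12.18 ± 0.50 against 10.11 ± 0.43, adjusted p = 1.67e-05), and Id1, a target of bone morphogenetic protein signalling, at least 64.8-fold higher (adjusted p = 7.66e-11). Clock genes were lower in 10 of 19 cases and higher in 1. Dbp, an output gene of the clock, was 3.23-fold lower (13.04 ± 0.08 against 11.35 ± 0.28, adjusted p = 0.000662). The hour of the day at which livers were taken is not given in the sources used here.

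Cytosolic ribosomal protein genes were higher in 38 of 42 cases and lower in 0, with a median of 0.73. Rpl14, a large-subunit protein, was at 3.71, 3.59 and 3.55 in untreated and 7.06, 7.07, 6.29 and 6.03 in antibiotic livers, at least 6.12-fold higher (adjusted p = 8.23e-08). It is not typical of the list, whose mean was 11.37 to 11.42 in untreated and 12.09 to 12.27 in antibiotic livers. What its probe set reports in untreated liver was not tested. Respiratory chain genes were lower in 21 and higher in 7 of 70 cases, and this split depended on the scaling, with 38 lower and 1 higher after centring and 13 lower and 11 higher after quantile normalization. Higher genes numbered 4 without antibiotic replicate 1 and 3 without untreated replicate 2. Sdha, the catalytic subunit of succinate dehydrogenase, was 2.75-fold lower (12.18 ± 0.13 against 10.72 ± 0.13, adjusted p = 1.56e-07). Of 39 proteasome subunits 8 were higher (5 without antibiotic replicate 3) and 0 lower, with 5 higher and 5 lower after centring and 13 higher after quantile normalization.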

How the data were processed

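RNA of whole livers was labelled with a 3′ IVT kit and hybridised to Affymetrix arrays, per the labels' protocols. The deposited table holds log2 values for 45101 probe sets on 15 arrays. The submitters' processing notes name GCRMA, which corrects background by probe sequence, normalizes between arrays and summarises probes, and its settings are not given in the sources used here. The deposited log2 values were used without further scaling. Low GCRMA values pile up near background, so folds were bounded at 4. Array precision is limited by the number of arrays, since there is no read depth.

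Probe sets were named from the platform annotation: 34945 had 1 symbol, 932 several, and 64 were controls. Symbols were updated through a RefSeq gene table (GRCm38.p6), in which 204 Entrez identifiers were not found. With the filter, 15541 probe sets and 9482 genes remained. In 128 of 3847 genes with several kept probe sets, probe sets were called in opposite directions.

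Group means were fitted over all 15 arrays in limma 3.58.1 (R 4.3.3; lmFit and eBayes, 11 residual and 3.4 prior degrees of freedom, prior SD 0.203), and p-values were adjusted by Benjamini-Hochberg over the 9482 genes. "Higher" and "lower" mean an adjusted p under 0.05. SE is from the moderated fit and SD is over arrays. Tables were made with pandas 2.3.3 under Python 3.11.15 and plots with matplotlib 3.10.9.

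The 58 gene lists (2139 entries, 1895 on the array, 1517 kept) were written by hand, and the comparison, lists and genes were chosen with earlier results of these data known. Named genes were the 10 highest and lowest differences, the 5 highest and lowest with all 7 arrays at 4 or more, up to 3 called members of each list with the largest differences, a fixed set of genes, the 8 highest and lowest against treated wild type and the 5 smallest differences at a mean of 12 or more. They numbered 197, of which 179 were called against untreated. Fam83d, Mcm10 and Myc fell outside this rule and were named after their values were seen. Alternatives covered scaling, the floor, the filter, the probe set, weights, the prior, the threshold, the arrays in the fit and each array left out.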

Additional observations from a re-analysis of the deposited data

Results flagged for a closer look

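In a group of 4 arrays, a value was set apart when its gap to the nearest other array exceeded 0.829 of the range of the group, which chance gives in about 1 in 20 groups. This was so in 14 of the 247 groups examined (5.67%), a share near what chance gives.

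In the antibiotic group, replicate 1 was apart in Hsd3b5 (6.34, others 8.73 to 9.13), Ighm (4.43, others 3.71 to 3.81) and Tubb6 (9.09, others 9.72 to 9.83). Replicate 2 was apart in Sprr1b (2.81, others 6.98 to 7.40), a cornified envelope protein of stressed epithelium, in Hapln1 (6.05, others 3.14 to 3.61), a matrix link protein, and in Lgals4 (5.62, others 6.29 to 6.39), a galectin of the gut. Replicate 3 was apart in Anxa3 (10.45, others 9.53 to 9.62) and in Sardh (8.07, others 8.98 to 9.12), a mitochondrial enzyme of choline breakdown. Replicate 4 was apart in Fabp4 (9.82, others 10.22 to 10.27) and in Serpina7 (8.01, others 6.24 to 6.48), the thyroxine-binding globulin. Among list means, replicate 4 was apart in apoptosis regulators (6.76, others 6.87 to 6.89) and plasma proteins (12.47, others 12.17 to 12.21), and replicate 3 in periportal genes (11.23, others 11.46 to 11.47) and in the cytoskeleton list (10.08, others 9.72 to 9.75).

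Of 10092 probe sets with several symbols or none, which entered no comparison, 54 were under 4 on all untreated and at 4 or more on all antibiotic arrays, and 64 had the reverse order.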

How the results depend on the processing

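Against untreated liver, the counts of changed, higher and lower genes stayed within 1.5 times of the values above under every alternative run but one: with every probe set tested on its own, which tests more features, they were 8705, 5065 and 3640. Leaving out 1 array gave 4978 to 5482 changed, 2898 to 3245 higher and 2051 to 2256 lower genes. Against treated wild type the counts moved more. Higher genes numbered 768 after quantile normalization, 843 with array weights and 306 in a fit of only the groups compared. At an adjusted p under 0.01 there were 413 changed, 123 higher and 290 lower genes. Leaving out 1 array gave 820 to 1624 changed, 254 to 657 higher and 549 to 967 lower genes. The cause of these shifts was not tested. Among the named genes no call reversed its direction under any alternative. The balance of all calls against untreated did turn, from 3269 higher and 2308 lower to 2511 and 3135 after centring. After quantile normalization it was 2448 and 2937. That of several lists turned as well, as given above. Exact permutation tests of single genes (two-sided, 35 arrangements of 7 arrays) cannot go below 0.0286, and of the genes called against untreated and named here Aurkb, Kif20a, Hmmr, Cxcl2, Hspb1, Acot3, Elovl3, Cyp7a1, S100a8, Serpina7, Sprr1b and Hapln1 gave 0.0571, Cd72 0.0857 and Sdc1 0.114. No paired analysis was possible because the labels give no numbers or animals that the groups share. Values under 4 carry little order, and differences there are bounds.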

Other observations

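Sprr1a, a cornified envelope protein that injured tissues can express, was at 3.40, 3.39 and 3.0 in untreated, 9.96, 9.32, 11.18 and 11.08 in antibiotic and 8.25, 8.37, 6.77 and 7.73 in treated wild-type livers, highest with antibiotics. It was at least 83.6-fold higher than untreated (adjusted p = 3.62e-08 in limma's test) and differed from treated wild type by 2.61 ± 0.45 (adjusted p = 0.00325). Tff3, a trefoil peptide of gut and bile duct epithelium, rose from 4.54, 4.82 and 5.52 in untreated to 10.05, 9.84, 10.04 and 10.11 in antibiotic livers (5.05 ± 0.59, adjusted p = 5.58e-06). Lgals4 was at 4.32 ± 0.42 in untreated, 6.15 ± 0.36 in antibiotic and 4.30 ± 0.70 in treated wild-type livers, higher with antibiotics than in both (adjusted p = 0.00177 and 0.00792).

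Fcna, a ficolin of macrophages that recognises bacterial sugars, was at 4.90, 6.63 and 7.62 in untreated, 3.52, 3.59, 4.22 and 4.31 in antibiotic and 6.65, 5.71, 6.21 and 5.26 in treated wild-type livers. The antibiotic arrays were lowest, at least 4.75-fold below untreated (adjusted p = 0.000498) and different from treated wild type by -2.05 ± 0.44 (adjusted p = 0.00911). Pf4, a chemokine of platelets and macrophages, was at 3.35 ± 0.44, 5.57 ± 0.47 and 6.76 ± 0.55 in the same groups, higher than untreated (adjusted p = 1.79e-05) and lower than treated wild type (adjusted p = 0.012). Thrsp, a lipogenic protein of hepatocytes, was 23.8-fold lower than untreated (13.39 ± 0.10 against 8.82 ± 1.39, adjusted p = 6.54e-05).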
